A study of Mus musculus with 49 samples.

Results

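Gene expression was compared between spherical organoids of different origin: spheroids grown from dedifferentiated hepatocytes (dediHep-SOs) and spheroids grown from fetal intestinal progenitor cells (FIPC-SOs). Members were taken by label, namely the 3 dediHep-SO and the 3 FIPC-SO libraries out of the 49 libraries and 16 groups of the series. Of 46078 gene identifiers, 11608 passed the low-count filter in these 6 libraries. All groups used carry C57BL/6J wild-type cells. DediHeps are hepatocytes of 10 week-old livers that were cultured as a monolayer with EGF until they became expandable progenitor-like cells. For dediHep-SOs these cells were embedded in Matrigel with Wnt3a, CHIR99021 (an inhibitor of glycogen synthase kinase-3), EGF, Noggin and R-spondin1, and no gene was introduced. FIPC-SOs came from intestinal cells of E13.5 embryos, and fetal intestinal progenitors are known to form spheroids under the same factors. Reference groups were freshly isolated hepatocytes (FH, n = 3), dediHeps in monolayer (n = 5), budding organoids of dediHeps transfected with Cdx2 (dediHep-BOs, n = 3) and budding organoids of crypts of the 10 week-old adult intestine (ISC-BOs, n = 4). Budding organoids were kept without Wnt3a and CHIR99021, from a later passage on in the case of dediHep-BOs. How many animals or embryos stood behind a library is not stated, so the p-values measure the spread between these libraries, which may in part be technical. Organ of origin, age of the donor and time in culture all differ between dediHep-SOs and FIPC-SOs and cannot be told apart by this comparison.

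Wnt and R-spondin signals keep intestinal stem and progenitor cells dividing, and a fetal gut epithelium grown with them forms hollow spheres rather than the budding, crypt-bearing organoids of the adult gut. The fetal spheroid state is known for low levels of differentiated lineages and for genes that reappear when adult gut heals after injury. Hepatocytes, in contrast, secrete plasma proteins such as albumin and transferrin and detoxify ammonia through the urea cycle, and after culture they can take up features of bile duct cells.

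Libraries were deep and even but did not all look alike. Total counts of unique molecular identifiers (UMIs) ranged from 1897762 to 2931078 per library, so that 3 counts corresponded to 0.963 to 1.49 CPM (counts per 1e+06 counts, after scaling). Across genes, libraries of the same group had Spearman coefficients of 0.866 to 0.971 in dediHep-SOs and 0.910 to 0.962 in FIPC-SOs, against 0.705 to 0.835 between the groups, with genes not being independent. dediHep-SO replicate 3 was the library farthest from its group (0.866 and 0.896). Deviations from the group mean moved with the GC content of transcripts, with Spearman coefficients across genes of 0.357, 0.125 and -0.331 in dediHep-SO replicates 1 to 3 and 0.265, -0.296 and -0.0542 in FIPC-SO replicates 1 to 3.

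FIPC-SO replicate 3 held mesenchymal transcripts. The summed level of 20 mesenchyme cell markers was 565 CPM in it, against 14.8 and 7.71 CPM in FIPC-SO replicates 1 and 2 and 11.1 to 16.9 CPM in the dediHep-SOs. Col1a1, the main chain of fibrillar collagen, had 587 counts in FIPC-SO replicate 3 against 9 and 7 in the other two, and 2, 0 and 0 in dediHep-SOs. Sex-linked transcripts also split the libraries. FIPC-SO replicates 1 and 2 held 1106 and 1250 counts of Xist and none of 4 Y-linked genes, whereas replicate 3 held 1 and 1107. dediHep-SO replicates 1 and 2 held no Xist and 623 and 415 counts of the Y-linked genes, and the study's methods describe male donors. dediHep-SO replicate 3 held no Xist and 1 Y-linked count, and dediHep monolayer replicate 2, which carries the same label code, held none of either. dediHep monolayer replicate 1 shares its code with dediHep-SO replicate 1 but held 738 counts of Xist and no Y-linked count, so that the shared code did not go with the same sex-linked transcripts. The part of these features in the results below was not tested, and the values without the third library of each group stand beside the counts.

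A gene was called when its edgeR quasi-likelihood false discovery rate (FDR) was under 0.1 and its log2 fold change exceeded 2 in size. Of 11608 genes, 1034 were called (8.91%), of which 571 were higher in dediHep-SOs (4.92%) and 463 lower (3.99%). Of the lower genes 93 had no count in dediHep-SOs, and of the higher genes 18 had none in FIPC-SOs. The filter fixed the direction of these genes. For 8533 genes (73.5%) the 95% interval of the difference lay within 4-fold in either direction, and 2041 genes were neither called nor bounded in this way. Without dediHep-SO replicate 3 the count of calls was 1716, and without the third library of both groups it was 1468. Of the genes called with all 6 libraries, 548 higher (96%) and 442 lower (95.5%) were called again in the same direction in that last fit.

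**Figure D1:**
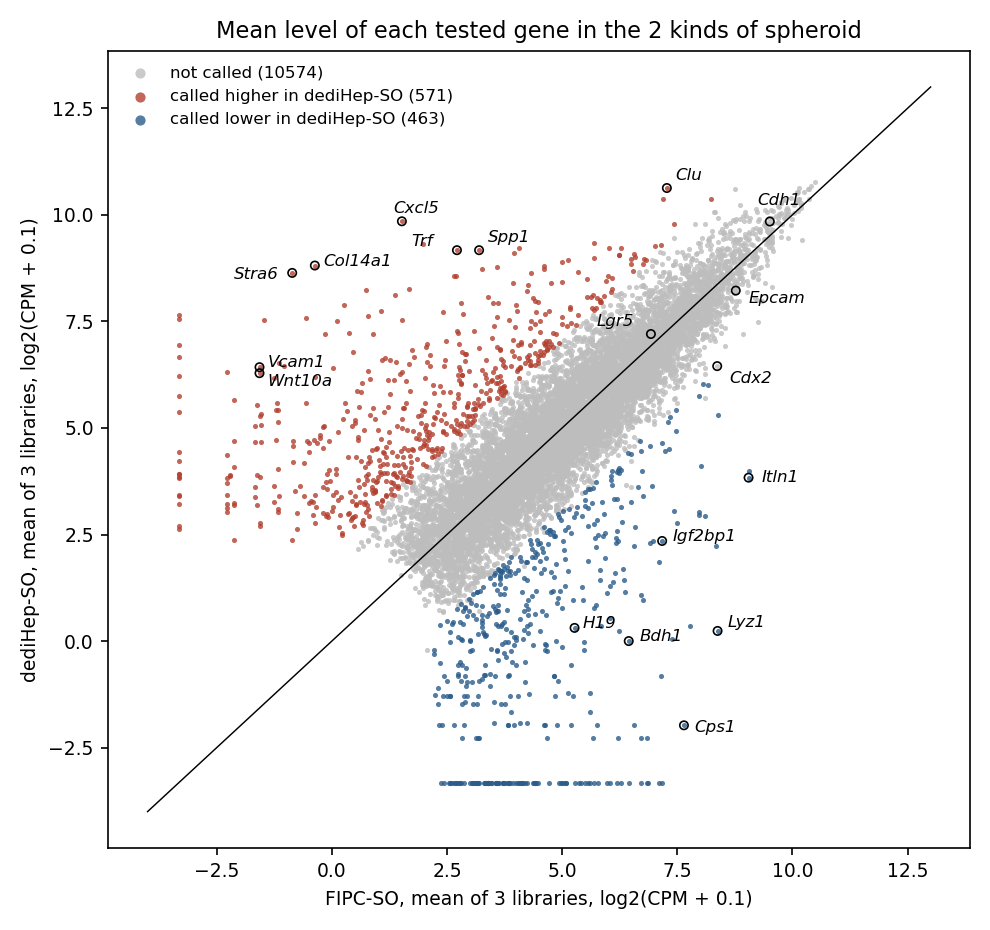
Mean level of each of 11608 tested genes in FIPC-SOs (x axis) and dediHep-SOs (y axis), each as log2 of the mean CPM of 3 libraries plus 0.1, with the line of equality. Red points are the 571 genes called higher in dediHep-SOs and blue points the 463 called lower. Genes on the left edge and the lower edge were at or near 0 in the other kind of spheroid, and Cdh1 and Lgr5 lie near the line.

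Several epithelial genes that the study names differed by less than 4-fold between both kinds of spheroid. Cdh1, the E-cadherin of epithelial junctions, was at 684, 1006 and 1067 CPM in dediHep-SO replicates 1 to 3 and at 716, 745 and 724 CPM in FIPC-SO replicates 1 to 3. Its log2 difference was 0.29 (95% interval -0.24 to 0.82), and the 2 groups overlapped. Vil1, which bundles actin in microvilli and marks gut epithelium, was at 312, 273 and 316 CPM and at 373, 183 and 209 CPM, with a log2 difference of 0.20 (-0.48 to 0.87). The intervals of Klf5, a crypt transcription factor (-0.41 to 1.26), Ephb2, a crypt receptor (-0.32 to 0.89), and Krt19, a keratin of ducts and gut (-0.01 to 1.16), also lay within 4-fold. Sox9, found in both bile ducts and crypt bases, was higher in dediHep-SOs by 0.94 on the log2 scale (0.24 to 1.64, FDR 0.0693), which did not reach the fold threshold. Lgr5, the receptor of R-spondins that marks intestinal stem cells and was added after its values were seen, was at 132, 118 and 192 CPM and 147, 101 and 117 CPM (-0.43 to 0.91).

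The master regulator of the intestine was present but lower. Cdx2 was at 87.7, 69.5 and 105 CPM in dediHep-SOs and at 407, 273 and 309.8 CPM in FIPC-SOs, with no overlap. The log2 difference was -1.96 ± 0.29 (SE, FDR 0.00165), just inside the fold threshold, and it crossed the threshold to -2.10 without dediHep-SO replicate 3 and to -2.23 with GC offsets. Hnf4a, a nuclear receptor shared by liver and gut, was at 97.04, 76.4 and 91.6 and 173, 142 and 159 CPM, a log2 difference of -0.88 (FDR 0.0479). Mki67, a marker of cycling cells, was at 230.1, 285 and 428 CPM against 619, 895 and 742 CPM, a log2 difference of -1.30 (FDR 0.0146). The groups did not overlap for either gene, and neither passed the fold threshold. Alb, the main plasma protein of hepatocytes, had 0 counts in all 6 spheroid libraries, which allows up to 0.963 to 1.49 CPM per library. It was at 4419 CPM on average in FH and at 496 CPM in dediHep monolayers. UMIs of 6 bases allow at most 4096 counts per gene and library. Alb had 3607, 3733 and 3771 counts in FH, near that ceiling, so its FH level is an underestimate. Vim, an intermediate filament of mesenchyme, was at 39.8, 31.3 and 1.85 CPM in dediHep-SOs and at 1.17, 0 and 17.3 CPM in FIPC-SOs. Its groups overlapped with all libraries (-0.78 to 4.59), and its log2 difference was 5.29 without FIPC-SO replicate 3, the library with mesenchymal transcripts, and then passed the test.

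Some lists held few calls or none, against 8.91% of all tested genes. None of 81 cytosolic ribosomal protein genes, 17 genes of the mitochondrial genome, 34 genes of cholesterol and fatty acid synthesis, 16 Notch genes or 6 keratins was called. Lists of 6 to 17 genes would hold few calls at that share, so their counts do not show likeness. The keratins summed to 3334 to 3910 CPM in dediHep-SOs against 1093 to 1866 CPM in FIPC-SOs, with a median log2 difference of 1.295. None of 47 cell cycle genes was called either, although their median log2 difference was -0.64 and the median over all tested genes was -0.03. Of 33 epithelial junction genes 2 were called, both lower: Cldn6, a claudin of early embryos (174-fold lower, 95% counting interval 47.8 to 1439.6), and Cldn15, a claudin of the gut that passes sodium (53.8-fold lower, 95% counting interval 14.6 to 449), and 4 were lower without dediHep-SO replicate 3.

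The plot of list counts sets these groups against the lists described next. Lists were made with earlier results of these data known, so their counts are read only beside the shares of all genes, 4.92% higher and 3.99% lower.

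**Figure D2:**
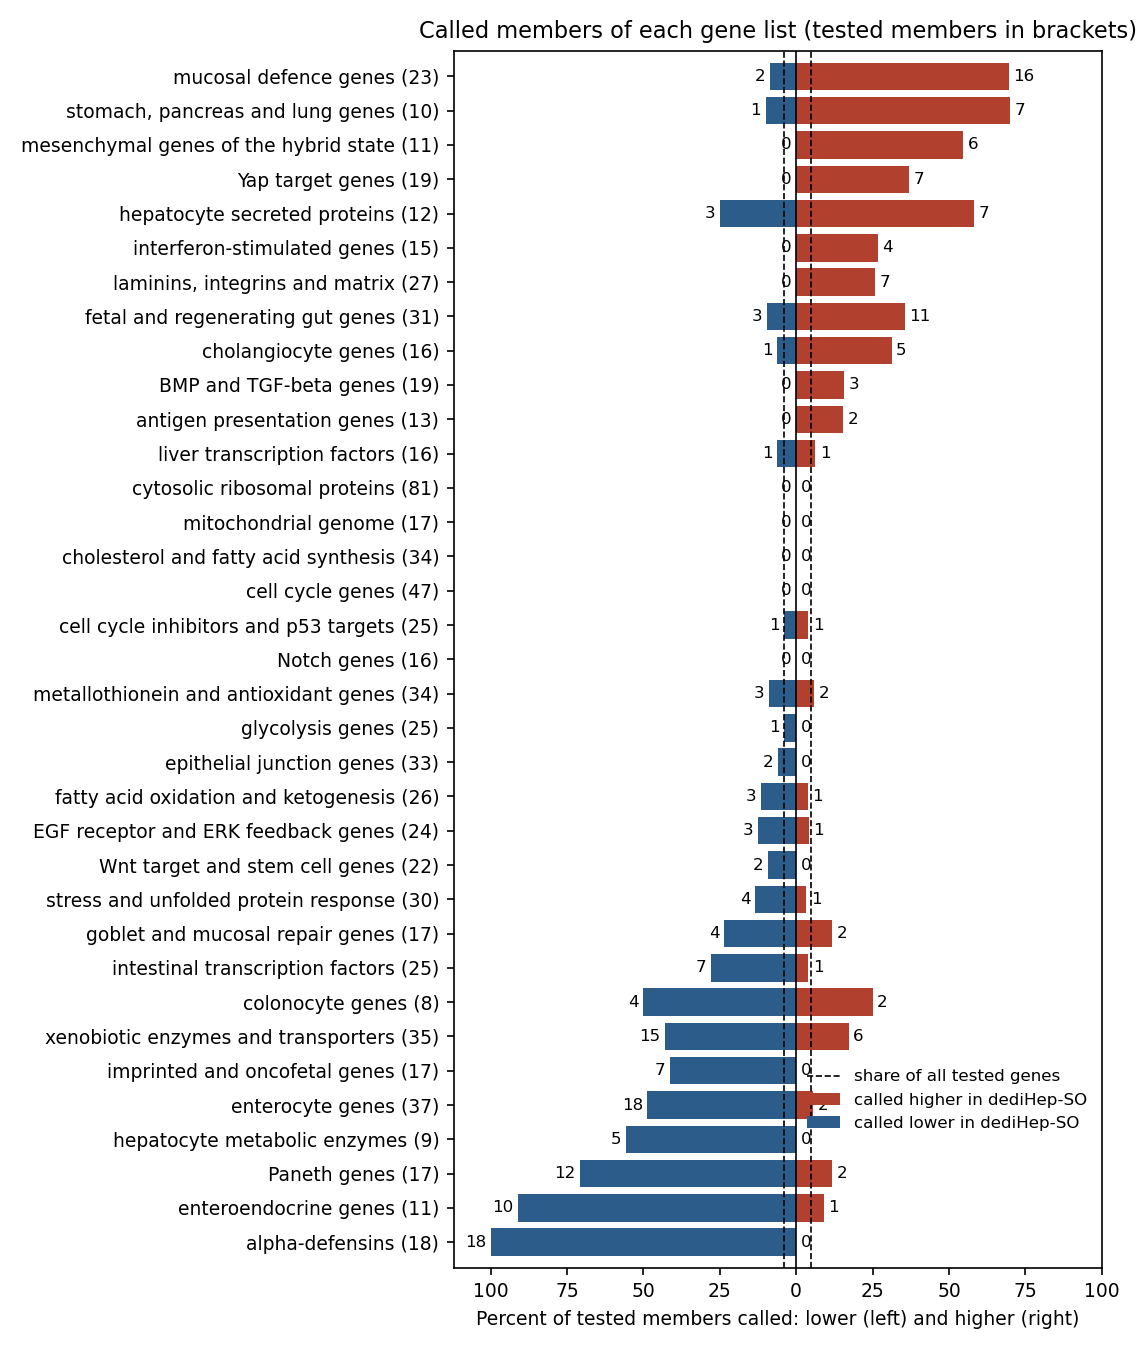
Percent of the tested members of each gene list that were called higher (red, right) or lower (blue, left) in dediHep-SOs than in FIPC-SOs, for the lists with at least 8 tested members (number in brackets). Bar ends give the number of genes, dashed lines the shares over all tested genes, 4.92% and 3.99%. Stomach, pancreas and lung genes (7 of 10) and mucosal defence genes (16 of 23) reach farthest to the right, and alpha-defensins (18 of 18) and enteroendocrine genes (10 of 11) farthest to the left, where 18 and 6 of the genes had no count in dediHep-SOs and could be tested only because FIPC-SOs held them.

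The 12 genes with the smallest p-values on the higher side encode secreted and surface proteins for the most part. Cxcl5, a chemokine that draws neutrophils, was at 777, 1108 and 882 CPM in dediHep-SOs and at 1.95, 3.15 and 3.21 CPM in FIPC-SOs (log2 8.30 ± 0.36, FDR 1.03e-05). Spp1, the matrix protein osteopontin made by bile duct cells, was at 538, 644 and 548 and 7.402, 10.5 and 9.31 CPM (log2 5.94 ± 0.31, FDR 2.01e-05). Trf, the iron carrier transferrin, was at 515, 564 and 651 and 8.18, 3.85 and 7.38 CPM (log2 6.43 ± 0.37, FDR 2.92e-05). In each case the lowest dediHep-SO library stood far above the highest FIPC-SO library.

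Wnt ligands and a vitamin A receptor were among the same 12 genes. Wnt7b, an epithelial Wnt ligand, was at 281, 210.4 and 150.4 CPM against 2.34, 1.402 and 2.25 CPM (log2 6.67), and Wnt10a was 334-fold higher (95% counting interval 92.1 to 2768). Stra6, the cell-surface receptor that takes up retinol from its carrier, was at 429, 459 and 307 CPM against 0.39, 0 and 0.963 CPM (log2 9.56). Each rose in dediHep-SOs, and no library of either group lay in the range of the other. Col14a1, a collagen that binds to fibrils, was at 298, 451 and 598 CPM against 0.39, 0.35 and 1.28 CPM (log2 9.20). Vcam1, an adhesion molecule for white blood cells, was 361-fold higher (95% counting interval 99.4 to 2985). The list closed with Sftpd, the lung surfactant collectin D (log2 5.87), C4bp, an inhibitor of complement (log2 6.74), Bicc1, an RNA-binding protein needed for tubule and duct form (log2 5.08), and Plekhs1 (log2 5.44).

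Genes of mucosal defence rose together. Of 35 listed genes 23 were tested. Of the tested members 16 were higher and 2 lower, against 4.92% and 3.99% over all genes. Members near 0 in FIPC-SOs, such as Lcn2, Ltf and Duoxa2, passed the filter only through dediHep-SOs, which fixed their direction. The share of higher members thus partly follows from the filter. The count of higher members was 16 or 17 in each fit that left out 1 library, with the same limit. The 5 with the smallest p were Cxcl5, Sftpd, Pigr, Lcn2 and Ltf. Pigr, which carries secretory antibodies across epithelia, was at 656, 589.5 and 541 CPM and 24.5, 10.9 and 14.4 CPM (log2 5.13 ± 0.36). Lcn2, an antibacterial protein that binds iron siderophores, was at 231, 200.5 and 120.3 CPM, and FIPC-SOs held 2 counts of it in all, which makes it 810.5-fold higher (95% counting interval 224 to 6699). Ltf, lactoferrin, was 204-fold higher (95% counting interval 55.99 to 1689) and was at 0 in FH, dediHep monolayers and both kinds of budding organoid. Cxcl5 and Lcn2, in contrast, were present in dediHep monolayers, at 36.6 to 733 CPM and 30.5 to 471 CPM. The list summed to 1296 to 3634 CPM in dediHep monolayers, 3944 to 4739 CPM in dediHep-SOs and 613 to 886 CPM in FIPC-SOs. The members that fell were Lypd8, which keeps bacteria off the colon wall (0.643, 0.496 and 21.7 against 376, 168 and 211 CPM), and Ccl25, a chemokine of the small intestine (1.61, 1.98 and 5.55 against 30.8, 48.7 and 24.4 CPM).

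The hydrogen peroxide system of mucosa was part of this group. Duox2, a dual oxidase, was at 405, 504 and 555 CPM against 41.7, 18.9 and 44.3 CPM (log2 3.76, FDR 0.000223), and its maturation factor Duoxa2 was 112-fold higher (95% counting interval 30.7 to 935). Both were at 0 in FH, and in dediHep monolayers Duoxa2 was at 0 and Duox2 at a mean of 0.0789 CPM. Members not called were Nfkbiz, Nfkbia, Il1rn, Il18 and Birc3, with log2 differences from -0.42 to 1.99.

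Because several of these genes are classical targets of NF-kB, the 250 bases before the start of each gene were searched for the letters GGANTTTCC on both strands in the RefSeq promoters of GRCm38.p6. Among 12 promoters found for the 16 higher mucosal defence genes, 4 held the letters (Cxcl1, Cxcl2, Icam1 and Tnfaip2), against 1.25% of all 27025 promoters and 1.33% of those of tested genes. The list was made with such known targets in it, so a high share partly follows from that choice. Over all genes called higher the count was 11 of 422 (2.61%), and over those called lower 4 of 326 (1.23%). Stretches of 3 of these promoters, picked after the matches were seen, are printed on the coding strand with the matching letters in capitals; the Icam1 match reads on the other strand.
Cxcl1, chr5:90891095-90891244, + strand: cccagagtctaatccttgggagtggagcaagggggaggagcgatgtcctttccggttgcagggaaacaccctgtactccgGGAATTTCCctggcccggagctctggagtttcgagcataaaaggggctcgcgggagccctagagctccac
Cxcl2, chr5:90903749-90903898, + strand: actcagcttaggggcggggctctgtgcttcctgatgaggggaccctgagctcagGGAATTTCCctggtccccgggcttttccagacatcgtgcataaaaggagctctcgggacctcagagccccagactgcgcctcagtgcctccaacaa
Icam1, chr9:21015767-21015916, + strand: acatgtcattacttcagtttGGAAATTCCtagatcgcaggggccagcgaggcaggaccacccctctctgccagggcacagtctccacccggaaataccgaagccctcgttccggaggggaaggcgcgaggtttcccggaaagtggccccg
The matches began 70, 96 and 153 bases before the start sites. Cxcl1 and Cxcl2, neighbouring chemokine genes, carry the same 9 letters. Cxcl1 was at 31.5, 44.2 and 40.3 CPM in dediHep-SOs and 0.39, 0 and 0.321 CPM in FIPC-SOs, Cxcl2 at 10.3, 7.94 and 25.5 and 0.779, 1.402 and 2.57 CPM, and Icam1, an adhesion molecule, at 69.7, 68.5 and 27.3 and 7.01, 3.85 and 8.99 CPM. All 3 rose, with log2 differences of 3.09 for Cxcl2 and 3.01 for Icam1, and no libraries overlapped. Cxcl1 was 160.5-fold higher (95% counting interval 44.00 to 1332). A run of letters is a description and shows no binding.

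Among the genes that passed the filter, plasma proteins of the liver were split from its enzymes. Of 39 secreted hepatocyte proteins 12 were tested, and 7 of them were higher and 3 lower. Members too low to test included Alb, Ahsg, Fgg, Vtn and Plg, with 0 counts in both kinds of spheroid. Beside Trf, C3, the central complement protein, was at 313, 247 and 149.9 CPM against 2.34, 0.35 and 0.642 CPM (log2 7.69, FDR 8.5e-05). Rbp4, which carries retinol in blood, was at 613, 786 and 259 CPM against 17.9, 8.76 and 19.6 CPM (log2 5.12, FDR 0.000223). Apoe, a lipoprotein ligand, was at 142, 92.3 and 26.8 CPM against 5.06, 2.102 and 5.78 CPM (log2 4.28, FDR 0.00196). These levels were still below those of FH, where the means were 2989.7 CPM for C3, 3949 CPM for Rbp4 and 4341 CPM for Apoe, with no test of that difference. Such high FH levels are held down by the ceiling of 4096 UMI counts. The members that fell were the lipoprotein genes Apoc3 (at least 18.5-fold lower), Apoa1 (44.4-fold lower, 95% counting interval 14.9 to 218) and Apoc2 (log2 -2.17), which gut epithelium makes as well.

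Of 36 metabolic enzymes of hepatocytes 9 were tested, and 5 fell and none rose. Tdo2, Uox, Cyp7a1 and Tat were among those too low to test, with 0 counts in both kinds of spheroid. Cps1 and Otc passed the filter only through FIPC-SOs, which fixed their direction. Cps1, the entry enzyme of the urea cycle, was at 0, 0 and 0.463 CPM in dediHep-SOs and at 137, 319 and 144 CPM in FIPC-SOs (1461-fold lower, 95% counting interval 262 to 57737, FDR 7.61e-05). Otc, the next enzyme of the cycle, was at 0, 0.496 and 2.31 and 209.98, 149.97 and 141 CPM (log2 -7.58, FDR 0.00016). Cth, of cysteine synthesis, fell by 5.91 on the log2 scale. Cps1 and Otc are enzymes of small intestine too, and their means in ISC-BOs were 839.9 and 819.6 CPM. Among 16 liver transcription factors Foxa2 was higher (193, 182 and 169.8 against 24.5, 17.9 and 17.01 CPM, log2 3.15) and Nr1i2, the xenobiotic receptor PXR, lower (log2 -4.06), and the other 14 were not called.

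Some targets of Yap and some matrix genes also rose. Yap is the effector of Hippo signalling that is active in spreading and regenerating epithelia. Of 19 Yap target genes 7 were higher and none lower, led by Fjx1, Ajuba, Ankrd1, Rbms3 and Myof. Ankrd1, a nuclear Yap target, was at 24.4, 41.7 and 133 CPM against 0.779, 1.402 and 2.25 CPM (log2 5.37, FDR 0.00131), and Ajuba, an adaptor at junctions, was at 208, 244 and 152 against 42.1, 32.6 and 47.8 CPM (log2 2.26). Of 11 mesenchymal genes of the hybrid epithelial state 6 were higher and none lower. Fn1, fibronectin, was at 225, 168 and 341 CPM against 8.96, 2.803 and 24.7 CPM (log2 4.27), and Lgals1, a galectin, at 157, 119.6 and 25.5 against 1.95, 0.701 and 7.38 CPM (log2 4.82). In FIPC-SOs the third library was the highest for both Fn1 and Lgals1, and it is the library with the mesenchymal transcripts.

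Of 27 laminins, integrins and matrix genes 7 were higher and none lower. Timp2, an inhibitor of matrix proteases, was at 328, 457 and 230.4 CPM against 11.3, 6.31 and 27.6 CPM (log2 4.43), and Lamb2, a laminin of basement membranes, at 308, 175 and 103 CPM against 18.3, 5.26 and 12.2 CPM (log2 3.99). Col18a1, Timp1 and Lama3 were the other leading members, with log2 4.16 for Col18a1 and 2.22 for Lama3. Of 19 BMP and TGF-beta genes 3 were higher and none lower: Bmp4 (141-fold, 95% counting interval 38.5 to 1167), Id2 (log2 2.21) and Tgfb1 (log2 2.52). The BMP count was 5 without FIPC-SO replicate 3.

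Genes of the fetal and regenerating gut were higher in the adult-derived spheroids more often than lower. Of 31 tested genes 11 were higher and 3 lower, and their median log2 difference was 1.73. The list summed to 10420 to 14230 CPM in dediHep-SOs and 3284 to 4967 CPM in FIPC-SOs. In dediHep monolayers the sum was 8617 to 11990 CPM, which overlapped that of dediHep-SOs. Clu, a secreted chaperone that marks revival stem cells, was at 1283, 1953 and 1517 CPM against 251, 87.2 and 126 CPM (log2 3.32, FDR 0.000585). It was also at a mean of 2048 CPM in FH and 1299 CPM in dediHep monolayers. Basp1 was at 206, 233 and 295 CPM against 9.74, 3.85 and 19.9 CPM (log2 4.40), Ctse, an acid protease, at 25.1, 36.7 and 65.2 CPM against 1.17, 0.701 and 1.61 CPM (log2 5.08), and Ly6e, a surface protein, at 1223, 1715 and 1014 CPM against 231, 81.6 and 122 CPM (log2 3.15). The exceptions fell: Anxa10, an annexin of the stomach (log2 -5.02), and the EGF receptor ligands Ereg (log2 -3.75) and Areg (log2 -2.51). Grouped by symbol, 8 of 10 tested genes that start with Ly, mostly Ly6 surface proteins, were higher and none lower, as were 4 of 7 Col genes.

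Some markers of other endoderm organs were higher as well. Of 16 cholangiocyte genes 5 rose, namely Spp1, Bicc1, Muc1, Prom1 and Aqp1, and Cftr, the chloride channel of ducts and crypts, fell. Muc1, a mucin of glandular surfaces, was at 165, 184 and 196 CPM against 1.17, 1.75 and 0 CPM (log2 7.47), and Aqp1, a water channel, at 667, 519 and 142 CPM against 42.1, 12.3 and 17.98 CPM (log2 4.16). Cftr was at 2.89, 3.47 and 24.99 CPM in dediHep-SOs, highest in replicate 3, and at 108, 114 and 103 CPM in FIPC-SOs (log2 -3.44, FDR 0.00974).

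Of 10 tested stomach, pancreas and lung genes 7 rose and 1, Anxa10, fell, while 27 of 37 did not pass the filter. Tested members near 0 in FIPC-SOs, such as Tff2 and Irx3, passed it only through dediHep-SOs, which fixed their direction. Tff2, a trefoil peptide of the stomach, was at 38.6, 37.7 and 32.4 CPM against 1.95, 1.05 and 0.963 CPM (log2 4.71). Irx3 and Irx5, homeobox factors, were at 42.7, 48.1 and 52.8 and 61.4, 77.9 and 199 CPM in dediHep-SOs and at 0, 0.701 and 0.321 and 5.06, 1.75 and 2.89 CPM in FIPC-SOs. Of 4 tested tuft cell genes 3 rose, with Dclk1, a kinase of tuft cells, at 159, 182 and 111 CPM against 0.39, 0 and 3.21 CPM (log2 6.80), followed by Ptgs1 (77.3-fold, 95% counting interval 26.1 to 378) and Ltc4s (log2 3.17). Dclk1 and Ptgs1 also passed the filter only through dediHep-SOs. Of 15 interferon-stimulated genes 4 rose, with Ifitm3 at 246, 251 and 141 CPM against 5.45, 3.85 and 6.42 CPM (log2 5.28) and Ifitm1 at 817, 905 and 189 CPM against 6.62, 1.05 and 3.85 CPM (log2 7.33), and Irf9 and Ifi27 following. Of 13 antigen presentation genes 2 rose, Tapbp (log2 3.62) and Cd74 (at least 61.3-fold).

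The lower side opened with transcription factors of development and with products of secretory gut cells. Zfp503, a zinc finger repressor, was at 0.321, 0 and 0 CPM in dediHep-SOs and at 94.7, 145 and 107 CPM in FIPC-SOs (845-fold lower, 95% counting interval 151 to 33421, FDR 4.28e-05). Cdx1, the homeobox partner of Cdx2, was at 0, 0 and 0.463 CPM and 40.5, 57.1 and 65.2 CPM (401-fold lower, 95% counting interval 71.7 to 15884, FDR 0.000101). In dediHep-SOs both genes had a single count in all. Bdh1, of ketone body metabolism, was at 0.321, 0.992 and 1.39 CPM against 108, 83.04 and 69.98 CPM (log2 -6.66), and Arid3a, a DNA-binding factor, was 72.9-fold lower (95% counting interval 24.7 to 356). Ildr1, a protein of tricellular junctions and hormone-secreting cells, was 692-fold lower (95% counting interval 124 to 27350.5), and Sh3gl2, of membrane curvature at vesicles, was at least 251-fold lower.

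Paneth cells sit at crypt bases and secrete lysozyme and alpha-defensins. Of 17 tested Paneth genes 12 were lower and 2 higher. Of these 17 genes 7 had no count in dediHep-SOs, so they passed the filter only through FIPC-SOs and had to be lower. The same held for Lyz1, with 7 counts over the dediHep-SO libraries. The summed level of the list was not lower, at 2457 to 3489 CPM in dediHep-SOs against 1752 to 3415 CPM in FIPC-SOs. Mmp7, the protease that activates defensins, named after its values were seen, made up much of it, at 1291, 1924 and 1497 CPM against 704, 226 and 374 CPM (log2 1.82, FDR 0.0111, under the fold threshold), and Sox9 is on the list too. Lyz1, Paneth lysozyme, was at 0, 0 and 3.24 CPM against 373, 299 and 324 CPM (log2 -8.36 ± 0.81, FDR 0.000207). Itln1, intelectin, was at 17.03, 13.9 and 11.6 CPM against 801, 399 and 387 CPM (log2 -5.25 ± 0.40, FDR 7.61e-05). The members that rose were Habp2, a plasma protease of the liver as well (log2 5.85), and Reg3g, an antibacterial lectin (93.5, 103 and 292 CPM against 21.4, 12.3 and 25.4 CPM, log2 3.00).

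All 39 annotated alpha-defensins had 0 counts in the 3 dediHep-SO libraries. The 18 that were tested passed the filter only through FIPC-SOs, so the filter fixed that all of them would be lower. Their summed level ran from 595 to 895 CPM in FIPC-SOs and from 2429 to 3394 CPM in ISC-BOs. Defa17 was at 163, 105 and 146 CPM in FIPC-SOs (at least 334-fold lower in dediHep-SOs), Defa24 at 159, 86.9 and 182 CPM (at least 348-fold lower) and Defa3 at 122, 92.9 and 128 CPM (at least 278-fold lower). The 18 genes lie in 1 cluster on mouse chromosome 8 between positions 21025545 and 21735471 (GRCm38). They are near-identical copies, so the division of reads among them is uncertain and the sum is the safer measure.

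Enteroendocrine cells release hormones into blood. Of 27 of their genes 11 were tested, and 10 were lower and 1 higher. Of these 11 genes 6 had no count in dediHep-SOs and passed the filter only through FIPC-SOs, which fixed their direction. The same held for Chgb and Chga, with 1 to 3 counts in dediHep-SOs. Chgb, a granule protein, was at 0.321, 0 and 0 CPM against 73.2, 64.1 and 85.4 CPM (544-fold lower, 95% counting interval 97.3 to 21516, FDR 4.92e-05), and Reg4 was 338-fold lower (95% counting interval 116 to 1643). The fate factor Neurod1 was at least 51.8-fold lower, and Tac1, which encodes substance P, at least 42.4-fold lower. Chga was 178-fold lower (95% counting interval 31.5 to 7048). Cpe, a prohormone processing enzyme, rose instead (549.8, 562 and 106 CPM against 37.01, 12.3 and 72.5 CPM, log2 3.28), and its mean was 748 CPM in dediHep monolayers.

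Goblet cells make mucus. Of 17 goblet and mucosal repair genes 2 were higher (Muc1 and Tff2) and 4 lower, the higher count was 4 without dediHep-SO replicate 3, and the lower count was 2 without either FIPC-SO replicate 1 or FIPC-SO replicate 3. Ccl9, Spink4, Tff3 and Tpsg1 fell, with Tff3, a trefoil peptide of goblet cells, at 88.7, 72.9 and 33.3 CPM against 321, 116 and 363 CPM (log2 -2.08, FDR 0.0176). Muc2, the main gut mucin, was at 21.2, 29.8 and 3.24 CPM against 67.01, 16.8 and 60.7 CPM, the groups overlapped, and the log2 difference of -1.45 ± 0.69 did not pass (SE, FDR 0.188). In bulk libraries, fewer cells of a type and less RNA per cell cannot be told apart.

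Absorptive enterocytes take up lipids and sugars. Of 37 tested enterocyte genes 18 were lower and 2 higher. Of these 37 genes 3 had no count in dediHep-SOs and passed the filter only through FIPC-SOs, which fixed their direction. The same held for Slc5a1 and Apoa4, with 1 to 3 counts in dediHep-SOs. Fabp2, the fatty acid carrier of the small intestine, was at 0, 0 and 0 CPM against 53.8, 84.8 and 26.96 CPM (at least 132-fold lower, FDR 0.000542). Mttp, which loads lipid onto lipoproteins, was at 4.18, 0.992 and 1.85 CPM against 54.9, 92.2 and 49.4 CPM (log2 -4.74, FDR 0.000375). Slc5a1, the sodium-glucose transporter, was 69.4-fold lower (95% counting interval 23.5 to 339), and Apoa4 208-fold lower (95% counting interval 37.04 to 8262). Muc13, a surface mucin, was at 26.03, 22.8 and 68.9 CPM against 335, 256 and 406 CPM (log2 -3.12). Ace (log2 2.94) and Lgals3 (log2 2.08) were higher, and 17 members, among them Vil1, were not called.

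The homeobox factors Cdx1 and Cdx2 bind letters such as CAATAAA and CCATAAA, and the same 250-base windows were searched for both. These letters were found in 3 of 14 promoters of lower enterocyte genes (Espn, Fabp1 and Fabp2), in 1 of 9 of lower Paneth genes (Itln1), in 24 of 326 of all genes called lower (7.36%) and in 30 of 422 of those called higher (7.11%), against 4.76% of tested genes and 7.55% of all promoters. The shares of the higher and the lower side were close. Stretches of 3 promoters, picked after the matches were seen, are printed on the coding strand with the matching letters in capitals; in Fabp2 they read on the other strand.
Fabp1, chr6:71199632-71199806, + strand: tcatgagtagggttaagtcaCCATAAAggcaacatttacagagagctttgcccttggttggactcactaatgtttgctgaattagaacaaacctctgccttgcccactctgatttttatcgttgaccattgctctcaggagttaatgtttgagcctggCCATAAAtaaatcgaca
Fabp2, chr3:122894922-122895071, + strand: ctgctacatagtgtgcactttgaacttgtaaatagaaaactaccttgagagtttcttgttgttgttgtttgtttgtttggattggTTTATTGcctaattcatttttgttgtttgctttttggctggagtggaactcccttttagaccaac
Itln1, chr1:171535295-171535444, - strand: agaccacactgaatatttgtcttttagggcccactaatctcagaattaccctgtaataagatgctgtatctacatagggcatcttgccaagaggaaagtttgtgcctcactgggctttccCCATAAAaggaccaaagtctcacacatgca
Fabp1, the fatty acid carrier of liver and gut, has 2 matches in this window, and Fabp2 and Itln1 have 1 each. Fabp1 had no counts in dediHep-SOs and was at 5.06, 44.5 and 12.8 CPM in FIPC-SOs (at least 51.2-fold lower). It was at 1873 CPM in FH and 23.9 CPM in dediHep monolayers. The letters GTTAATNAT, bound by HNF1 factors of liver and gut, were in 6 of 422 higher (1.42%) and 6 of 326 lower genes (1.84%), against 0.543% of tested genes and 0.866% of all promoters.

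Enzymes of detoxification divided between the groups. Of 35 tested xenobiotic enzymes and transporters 15 were lower and 6 higher. Ces2e, a carboxylesterase, was at 7.39, 13.9 and 25.9 CPM against 733, 440.5 and 414 CPM (log2 -5.12, FDR 0.000205), and Ces2a, Abcg5, Cyp2d26 and Cyp2j6 fell with it. By symbol, 7 of 17 tested Cyp genes and 4 of 5 Ces genes were lower. Cyp1b1, a cytochrome of extrahepatic tissues, was at 93.5, 139 and 215 CPM against 6.62, 5.96 and 7.06 CPM (log2 4.46). Aldh1a1, which makes retinoic acid, was at 307, 254 and 335 CPM against 24.5, 21.02 and 10.9 CPM (log2 3.95), and Sult1a1 (46.8-fold, 95% counting interval 15.7 to 230.4), Ahr (log2 2.41) and Ephx1 (log2 2.99) rose too. Of 34 metallothionein and antioxidant genes 2 were higher (Gsta3 and Gstt1) and 3 lower (Gsta1, Gstm3 and Nqo1), with 5 lower without either dediHep-SO replicate 3 or FIPC-SO replicate 1. Of 26 fatty acid oxidation genes 1 was higher (Acox2) and 3 lower, among them Bdh1 and Acot2. Of 8 colonocyte genes 4 were lower and 2 higher.

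Of 25 intestinal transcription factors 7 were lower and 1, Id2, higher. After Cdx1 came Osr2 (127-fold lower, 95% counting interval 34.9 to 1055), Atoh1, the fate factor of secretory cells (0.643, 0.992 and 0.925 CPM against 38.2, 17.9 and 17.3 CPM, log2 -4.84), Hnf4g (log2 -4.27) and Creb3l3 (log2 -3.34). Most Wnt target and stem cell genes were not called. Of 22, 2 were lower, Smoc2, a matrix protein of stem cells (0, 0 and 2.31 CPM against 28.4, 66.9 and 37.6 CPM, log2 -5.93), and Msi1, an RNA-binding protein (at least 34.7-fold lower), and 4 were lower without dediHep-SO replicate 3. Of 39 Hox genes, which mark position along the body axis, 2 passed the filter and both were lower, Hoxa3 (at least 16.5-fold) and Hoxb4 (log2 -3.31), with 4 lower without dediHep-SO replicate 3 and 5 without FIPC-SO replicate 2. Hoxa3 had no count in dediHep-SOs, so it passed the filter only through FIPC-SOs, which fixed its direction. The 39 Hox genes summed to 0 to 4.82 CPM in dediHep-SOs and to 23.1 to 62.9 CPM in FIPC-SOs.

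Some genes of embryonic growth were lower. Of 17 imprinted and oncofetal genes 7 were lower, 5 to 10 on leaving out 1 library, and none higher. Igf2bp1, an RNA-binding protein of embryonic tissue, was at 7.71, 4.96 and 2.31 CPM against 206, 116 and 110.1 CPM (log2 -4.84, FDR 0.000243). H19, an imprinted long RNA, was at 0.643, 0 and 2.78 CPM against 47.1, 10.9 and 57.5 CPM (log2 -5.09, FDR 0.00394), and its mean in dediHep monolayers was 763 CPM. Igf2bp3 (log2 -2.85), Trim71 (22.2-fold lower, 95% counting interval 7.32 to 109.98) and Kcnq1ot1 (log2 -2.04) fell as well. Of 24 EGF receptor genes 3 were lower, Ereg, Areg and Lrig3 (at least 34.4-fold), and 1, Ier3, was higher (log2 2.89). Of 30 stress genes 4 were lower, Mthfd2, Asns, Chac1 and Trib3, which respond to amino acid shortage, with log2 differences from -2.84 to -2.36. Hspb1, a small heat shock protein, rose (146, 108 and 38.4 CPM against 3.51, 0.35 and 2.25 CPM, log2 5.53). Of 25 cell cycle inhibitors and p53 targets 1 was higher and 1 lower, and 4 were lower without dediHep-SO replicate 3.

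Markers of cell types that should be absent were mostly too low to test. Of 20 mesenchyme markers only Foxf2 passed the filter, and it was higher in dediHep-SOs (42.7-fold, 95% counting interval 11.4 to 359.6), with 26, 25 and 22 counts per library. Of 13 endothelial markers 2 were tested and Esam was higher (log2 2.71), while Pecam1, Cdh5 and Kdr had at most 3 counts in any of the 6 libraries. Of 14 immune markers 4 were tested, with Csf1r higher (log2 3.86) and Lyz2, which Paneth cells express too, lower (at least 105-fold). Ptprc, the pan-leukocyte marker, was at 0 in all 6. Of 14 nerve, glia and mesothelial markers 3 were tested and Upk3b was lower (log2 -4.75). Msln, mesothelin, which is on the fetal gut list as well and was named after its values were seen, was abundant in both groups, at 656, 1009 and 589 CPM against 331, 425 and 429 CPM (log2 0.89, FDR 0.0541, under the fold threshold). Sox10 had 3, 0 and 19 counts in FIPC-SOs. None of 4 tested sex-linked genes was called with all libraries, and 3 were higher without FIPC-SO replicate 3.

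Genes that separated the spheroids were traced through the other groups. Among the 571 higher genes 285 (49.9%) were more than 4-fold higher in dediHep monolayers than in ISC-BOs and 37 (6.48%) the other way round, against 6.69% and 5.89% of all tested genes. Among the 463 lower genes 258 (55.7%) were more than 4-fold higher in ISC-BOs and 19 (4.1%) the other way round. These are ratios of group means with 1 CPM added, with no test, and the monolayers share label codes with the spheroids. The median of the higher genes was 25.5 CPM in dediHep monolayers, 6.25 CPM in dediHep-BOs, 4.95 CPM in FH and 2.48 CPM in ISC-BOs. That of the lower genes was 2.3, 14.8, 1.14 and 27.8 CPM in the same order.

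**Figure D3:**
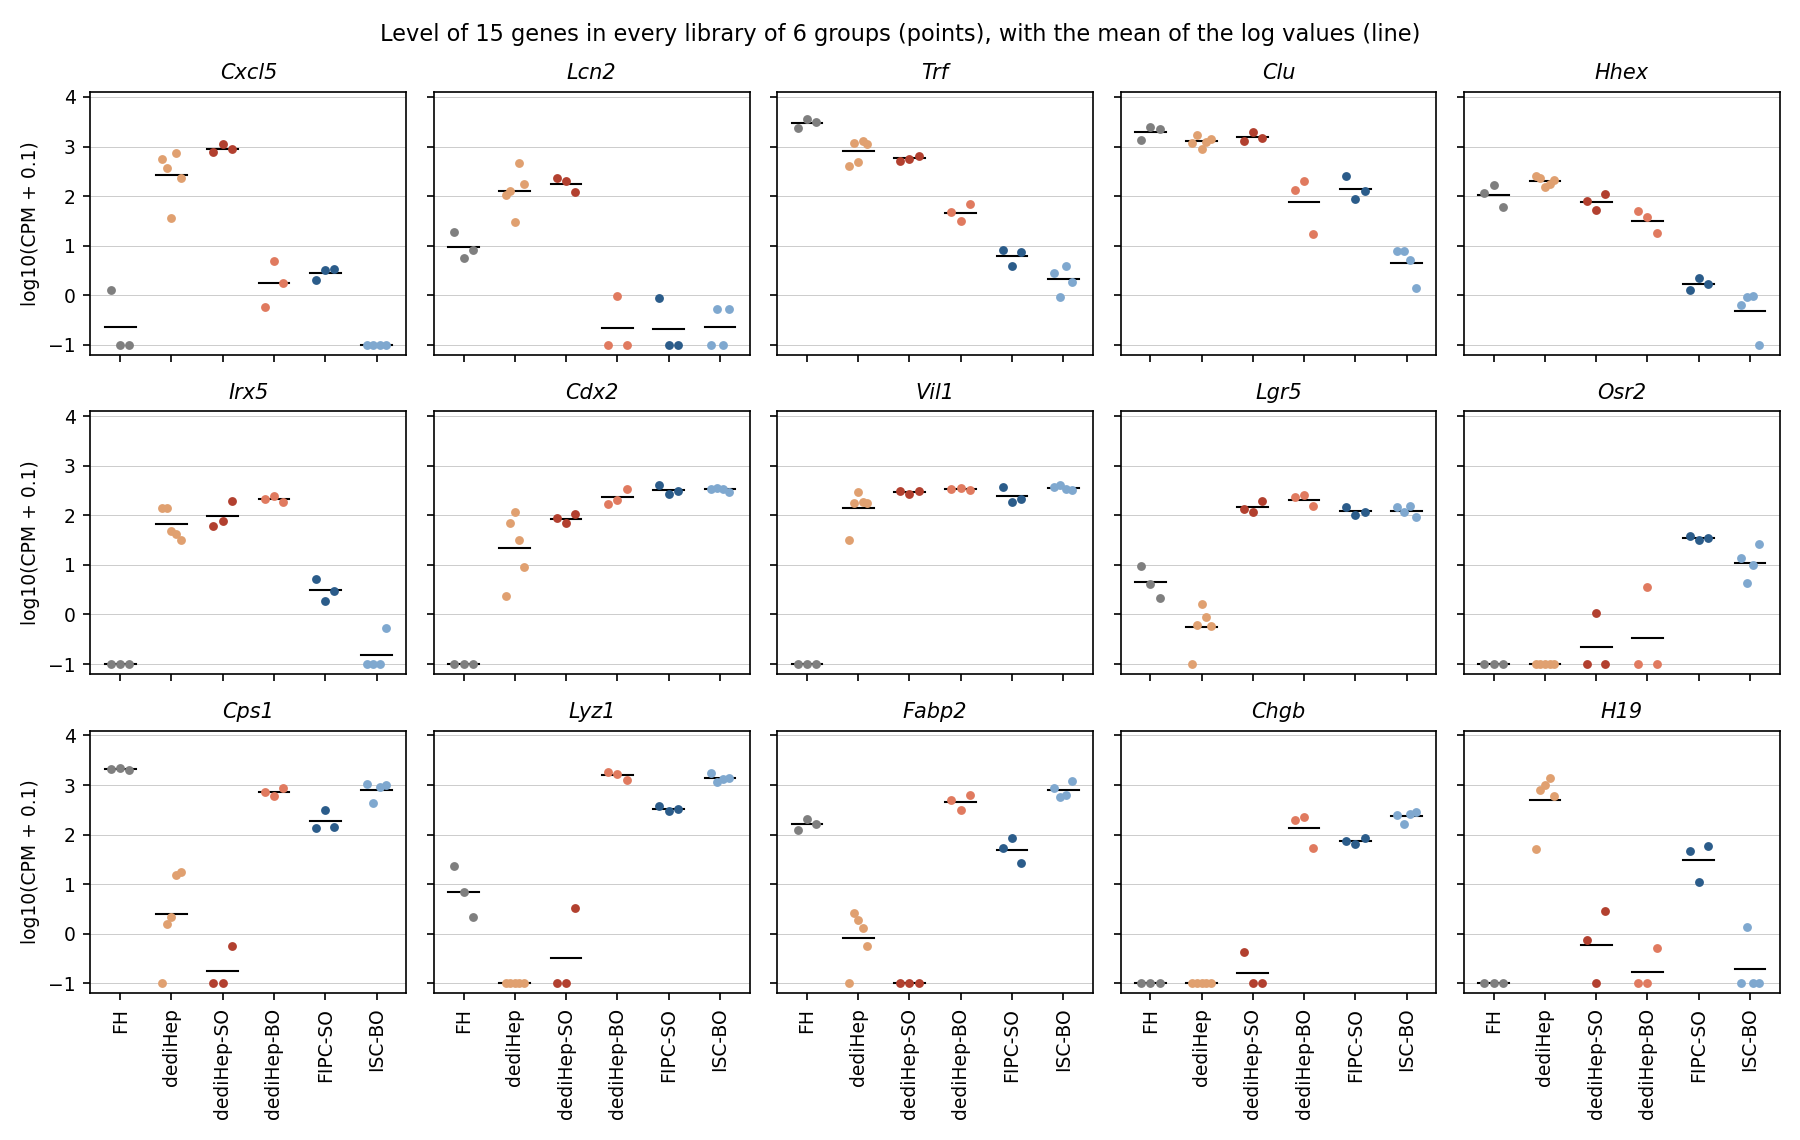
Levels of 15 genes in every library of FH, dediHep monolayers, dediHep-SOs, dediHep-BOs, FIPC-SOs and ISC-BOs, as log10 of CPM plus 0.1 (y axis), with points for libraries and a line at the mean of the log values. Irx5 is high in the 3 groups of dediHeps and at or near 0 in FIPC-SOs and ISC-BOs, Vil1 and Lgr5 overlap between the spheroids, and Lyz1, Cps1, Fabp2 and Chgb are high in both kinds of budding organoid but not in dediHep-SOs.

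A difference between liver and gut origin was also measured in budding organoids, where dediHep-BOs carry introduced Cdx2 and were compared with ISC-BOs of adult gut. The gut cells were fetal in the spheroids and adult here. dediHep-BO replicates 1 and 2 held mesenchyme markers at a sum of 394 and 406 CPM, against 7.10 CPM in replicate 3 and 0.54 to 1.67 CPM in ISC-BOs. Of 11303 genes 345 were called (3.05%), of which 152 were higher in dediHep-BOs (1.34%) and 193 lower (1.71%). Of the 571 genes higher in dediHep-SOs 302 were tested there, and 46 were higher and 10 lower. Of the 463 lower genes 377 were tested, and 70 were lower and 7 higher. These shared genes were 15.2% and 18.6% of the spheroid genes tested in budding organoids, and 30.3% and 36.3% of the genes called higher and lower in them.

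Genes called in both comparisons included transcription factors of development, chosen after their values were seen. Hhex, a factor of early liver, rose in spheroids (79.05, 52.6 and 109.7 CPM against 1.17, 2.102 and 1.61 CPM) and in budding organoids (log2 5.84), as did Irx3, Irx5, Spp1, Trf and Clu. Pitx1, Osr2, Gata4 and 14 of the 18 alpha-defensins were lower in both comparisons. List by list, 4 fetal and regenerating gut genes were higher in dediHep-BOs among 18 tested, 2 mucosal defence genes among 12, and 1 enterocyte gene was lower and 1 higher among 36.

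**Figure D4:**
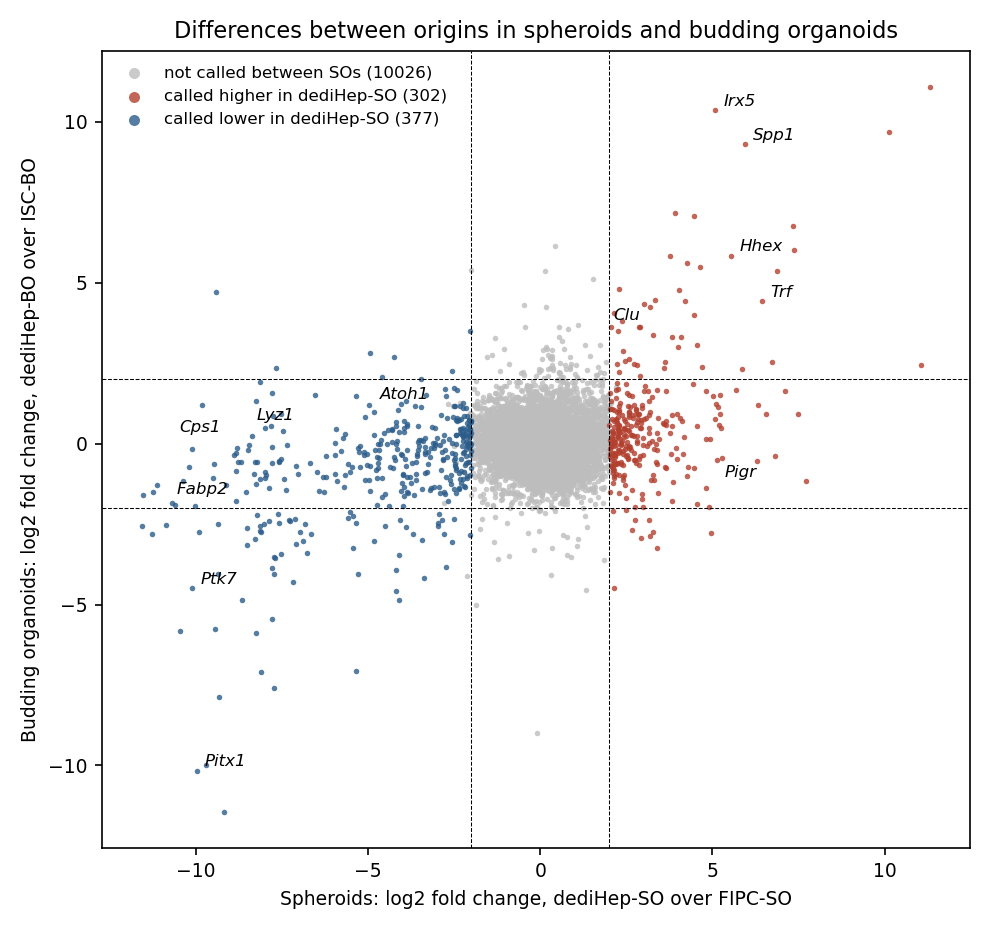
Log2 fold change of each gene between origins in spheroids (x axis, dediHep-SO over FIPC-SO) and in budding organoids (y axis, dediHep-BO over ISC-BO), with dashed lines at the fold threshold. Red and blue points are genes called higher and lower between the spheroids. Spp1, Trf, Hhex and Irx5 lie far from 0 on both axes in the same direction, as do Pitx1 and Ptk7, and Cps1, Lyz1, Fabp2 and Pigr lie near 0 on the y axis.

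Whether the difference of origin was the same in spheroids and budding organoids was tested directly, by the spheroid difference minus the budding organoid difference. Age of the gut donor, introduced Cdx2 and medium also differ between these comparisons and cannot be told apart. Of 12379 genes 1170 were called (9.45%), of which 505 had the spheroid difference above (4.08%) and 665 below (5.37%). The genes called between spheroids were chosen for a large spheroid difference, which is also part of this test. Their share of calls and the agreement in direction were thus largely fixed in advance. Of the 1034 genes called between spheroids 1024 were tested in this fit and 566 were called. For 248 of them the gene was higher in dediHep-SOs and its difference was above that of the budding organoids, and for 312 it was lower and its difference below. The count was 749 without dediHep-SO replicate 1, 2157 without dediHep-SO replicate 3 and 662 when only the third dediHep-BO library was kept.

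On the lower side of that test the first 5 genes by p were Ang4, Arid3a, Lyz1, Cps1 and Sh3gl2. Cps1 was at 0.154 CPM on average in dediHep-SOs and 200.03 CPM in FIPC-SOs, but at 732 ± 145 CPM (SD, n = 3) in dediHep-BOs and 839.9 ± 271 CPM (SD, n = 4) in ISC-BOs (difference of differences -9.88 ± 0.81 on the log2 scale, FDR 9.29e-06). Lyz1 was at 1579.8 ± 276 CPM (SD, n = 3) and 1383 ± 241 CPM (SD, n = 4) in the same groups (-8.55 ± 0.69, FDR 9.29e-06). Ang4, an antibacterial ribonuclease of Paneth cells, was at 387 ± 103 CPM (SD, n = 3) and 77.7 ± 26.7 CPM (SD, n = 4) (-9.95 ± 0.78, FDR 9.29e-06). For these genes the gap between origins was thus large in spheroids and small or of opposite sign in budding organoids.

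On the other side stood Pigr, which was higher in dediHep-SOs than in FIPC-SOs but at 484 ± 96.5 CPM (SD, n = 3) in dediHep-BOs and 704 ± 89.9 CPM (SD, n = 4) in ISC-BOs (5.67 ± 0.38, FDR 2.68e-06). F5, coagulation factor V, was at 55.6, 49.1 and 24.5 CPM in dediHep-SOs and 0, 0.35 and 0.642 CPM in FIPC-SOs, and at 2.07 and 3.55 CPM on average in dediHep-BOs and ISC-BOs (7.48 ± 0.75, FDR 4.54e-05). Ly75, an endocytic receptor, followed with 6.23 ± 0.60. Arg2, an arginase of mitochondria, was not part of the spheroid calls and was at 8.18 CPM in dediHep-BOs against 314 CPM in ISC-BOs.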

How the data were processed

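Total RNA of each sample was analysed by CEL-Seq2, which tags the 3′ end of each transcript with a UMI of 6 bases, so levels do not scale with transcript length. With 6 bases a gene can reach at most 4096 counts in a library, so printed levels of the most abundant genes are underestimates. The deposited values are UMI counts per Ensembl gene, made by the authors, and 46078 identifiers are listed for 49 libraries. The submitters' notes name GRCm38, bcl2fastq 2.20, Bowtie2 2.3.1 and HTSeq 0.6.0, and strand handling is not given in the sources used here. Symbols were matched for 45143 identifiers.

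Counts of the 6 spheroid libraries were fitted with edgeR 4.0.16 (R 4.3.3; TMM scaling, filterByExpr with a minimum count of 10, quasi-likelihood F test, Benjamini-Hochberg FDR under 0.1 and log2 fold change over 2, as in the study's methods). The same test served the 7 budding organoid libraries, and 1 fit of all 13 tested the difference of differences. FDR values in the text are from these fits. Printed levels are CPM on a TMM scale over all 49 libraries, which is 0.04 log2 away from that of the fit. Where a group held no count the fold is a bound against 3 counts over the group, and with 1 to 3 counts a ratio of counts with an exact binomial interval. Intervals of log2 differences come from the fit and include the spread between libraries. Counting intervals and bounds against 3 counts cover counting error only. On counts simulated with the same dispersion for every gene and no library effects, the test was checked to recover known changes. Such counts lack the differences between libraries described above, so the check does not cover them.

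Named genes were the first 12 by p on either side, 13 genes the study names, up to 5 called members per list and direction, and, for the difference of differences, the first 5 by p on either side. Some genes that meet these rules are not reported here. Members and lists were chosen with earlier results of these data known. Alternatives were tried in scaling, filter, tool (DESeq2 1.42.0, limma 3.58.1), depth, UMI saturation and single libraries, and after seeing the data GC offsets and fits without the libraries that stood apart.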

Additional observations from a re-analysis of the deposited data

Results flagged for a closer look

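The difference between origins differed between spheroids and budding organoids in the direct test for 1170 genes. Among the genes named in the report, values of the spheroid difference minus the budding organoid difference on the log2 scale were above 0 for Trf (2.03), C4bp (4.24), Bicc1 (4.35), Pigr (5.67), F5 (7.48), Ly75 (6.23), Slc25a45 (6.91) and Arg2 (6.84). Trf and C4bp, both made by hepatocytes, were thus higher in cells of hepatocyte origin by a larger factor in spheroids than in budding organoids.

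Values were below 0 for Cps1 (-9.88), Ang4 (-9.95), Lyz1 (-8.55), Itln1 (-5.13), Defa3 (-9.60), Defa17 (-9.78), Chgb (-8.05), Cdx1 (-7.58), Ildr1 (-7.13), Sh3gl2 (-9.70), Arid3a (-7.48), Bdh1 (-3.81) and Muc2 (-2.41). Apart from Itln1, Bdh1, Muc2 and Lyz1, these genes had at most 3 counts over all dediHep-SO libraries, so the size of the fitted value depends on the prior count. The budding organoids also differ from the spheroids by the introduced Cdx2, the medium and the age of the intestinal donor, which cannot be told apart here.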

How the results depend on the processing

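The count of 1034 called genes rested on the fold threshold and the filter. It was 2401 at a log2 threshold of 1, 2723 at any fold, 2052 without a low-count filter, 635 with a minimum count of 30 and 1558 with all 49 libraries in the fit. Leaving out 1 library gave 1023 to 1716 calls (dediHep-SO replicate 3 for the highest) and 7739 to 8355 genes bounded within 4-fold. Scaling, depth, UMI saturation, an FDR of 0.05, GC offsets, DESeq2 and limma voom gave 974 to 1082 calls. Of the 1034 genes, 430 higher (75.3%) and 346 lower (74.7%) were called in the same direction in all 6 fits that left out 1 library, and with GC offsets 497 (87%) and 427 (92.2%). For the difference of differences the count of 1170 was 1758 without a filter, 1798 without the third library of both spheroid groups, 662 with only the third dediHep-BO library, and 749 to 2157 on leaving out 1 library (dediHep-SO replicates 1 and 3). The causes of these shifts were not tested, except that filters change the number of genes tested. Of the named genes, Cdx2 passed the fold threshold under some settings (-2.01 to -2.23) and Vim without dediHep-SO replicate 3 (2.45), without FIPC-SO replicate 3 (5.29) or without both (5.83), and none changed direction. Of 1462 list counts under alternatives 178 moved by more than 1.5 times. Genes under about 10 counts per library could not be tested.

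Spheroid groups share replicate numbers, but deviations of same-numbered libraries correlated at 0.549, -0.157 and 0.291, so the libraries were not treated as paired. With a replicate block 1071 genes were called and 9026 bounded. dediHep-SO replicate 3 correlated best with FIPC-SO replicate 2 (0.414).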

Other observations

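Of the genes called between spheroids, 17 were called in the opposite direction between dediHep-BOs and ISC-BOs, and the 7 named here were chosen after their values were seen. Kcnq1ot1, the imprinted long RNA described above, was at a mean of 25.8 CPM in dediHep-SOs and 103 CPM in FIPC-SOs, but at 31.6 CPM in dediHep-BOs and 2.76 CPM in ISC-BOs. Guca2a, the gut peptide guanylin, was at 1.04 and 19.1 CPM in the spheroids and at 106 and 16.8 CPM in the budding organoids, in the same order, and Ang4, the Paneth ribonuclease, had the same pattern. Mptx1, a pentraxin of the gut, had no count in dediHep-SOs and was at 31.9 CPM in FIPC-SOs, 112 CPM in dediHep-BOs and 4.23 CPM in ISC-BOs.

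The opposite order held for Scnn1a, a subunit of the epithelial sodium channel, at 13.4 and 1.88 CPM in the spheroids and 1.29 and 7.21 CPM in the budding organoids. Cda, cytidine deaminase, was at 114 and 25.5 CPM and at 47.2 and 206 CPM, and Mgmt, which repairs alkylated DNA, at 28.9 and 4.42 CPM and at 0.771 and 5.28 CPM.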
